A study of Mus musculus with 6 samples.

Results

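The fibrillin, LTBP and MFAP genes encode the extracellular microfibrils that run through the wall of blood vessels and other connective tissue. The 9 genes described here are Fbn1 and Fbn2 (fibrillins), Ltbp1, Ltbp2, Ltbp3 and Ltbp4 (latent TGF-β binding proteins), and Mfap2, Mfap4 and Mfap5 (microfibril-associated proteins). They were chosen by name, as rows of the deposited count table, with earlier results of these data known. All 9 were among the 23420 genes of the table, and all 9 were among the 13142 genes abundant enough to test. The measured values below therefore describe genes that were chosen from this comparison, so calls and counts of calls are given for them as a description, and no p-value of a member is offered as a test.

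RNA was sequenced from endothelial cells of whole mouse embryos at embryonic day 12.5 of the strain Csf1r-iCre;RosatdTomato. In these embryos a Cre recombinase under the Csf1r promoter switches on the red reporter tdTomato from the Rosa locus, and both groups carry both alleles. Cells that displayed PECAM1, an endothelial surface protein, and lacked CD45, CD11b and KIT, which mark blood cells and their progenitors, were sorted. They were divided into tdTom+ cells, with a history of Cre activity, and tdTom- cells without reporter signal, with 3 libraries in each group. The protocol names 3 embryos, and the labels do not say which libraries came from the same embryo. Csf1r is a gene of myeloid cells, and the comparison addressed whether endothelial cells labelled through it differ from other endothelial cells of the embryo.

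Fibrillins are long, cysteine-rich glycoproteins that assemble end to end into microfibrils, and elastin is laid down on these microfibrils to form elastic fibres. LTBPs share the fibrillin domain plan and bind to microfibrils, and several of them hold TGF-β in the matrix in its latent form until it is released. MFAP2 and MFAP5, also known as the microfibril-associated glycoproteins, bind along fibrillin, while MFAP4 belongs to the fibrinogen-related proteins and binds fibrillin and elastin. In the vessel wall these proteins are best known from smooth muscle, fibroblasts and the endothelium itself, and mutations of FBN1 cause Marfan syndrome.

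Library totals ran from 8919887 to 11767956 counts, so that 3 counts corresponded to between 0.254 and 0.336 CPM (the read count of a gene relative to the library size, which was scaled by the TMM method). Between 14432 and 15300 genes had a count in tdTom+ libraries and between 15850 and 16109 in tdTom- libraries. The 10 endothelial core genes, such as Pecam1 and Cdh5, summed to between 7575 and 8082 CPM in tdTom+ and between 7614 and 7862 CPM in tdTom- libraries. In edgeR's quasi-likelihood test 0 of these 10 passed an adjusted p of 0.05, with 1 at an unadjusted p under 0.05 and 0 called by DESeq2 or limma-voom. Pecam1 stood at 831 ± 57.4 CPM in tdTom+ and 930 ± 36.3 CPM in tdTom- libraries (mean ± SD, n = 3). The sorted cells of both groups thus carried the transcripts of the endothelial type by which they were labelled.

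Of the 9 genes, 4 were called lower in tdTom+ cells (Ltbp3, Ltbp4, Mfap2 and Mfap5), where called means a Benjamini-Hochberg adjusted p under 0.05 over all tested genes in edgeR. The share of all tested genes called lower was 0.814%. None was called higher, against 0.769% of all tested genes, and DESeq2 and limma-voom also called 0 of the 9 higher. The fitted log2 fold change, tdTom+ minus tdTom-, was below 0 for all 9, as it was for 6575 of the 13142 tested genes. Its median was -1.15 over the 9 genes and -0.00 over all tested genes. The tdTom+ libraries all lay below the tdTom- libraries for 5 of the 9 genes, a pattern shown by 9.35% of all tested genes. An unadjusted p under 0.05 was reached by 7 of the 9 and by 1405 of the 13142 tested genes. Because the genes were chosen from this contrast, these shares are printed as background, and nothing is read from the difference.

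**Figure D1:**
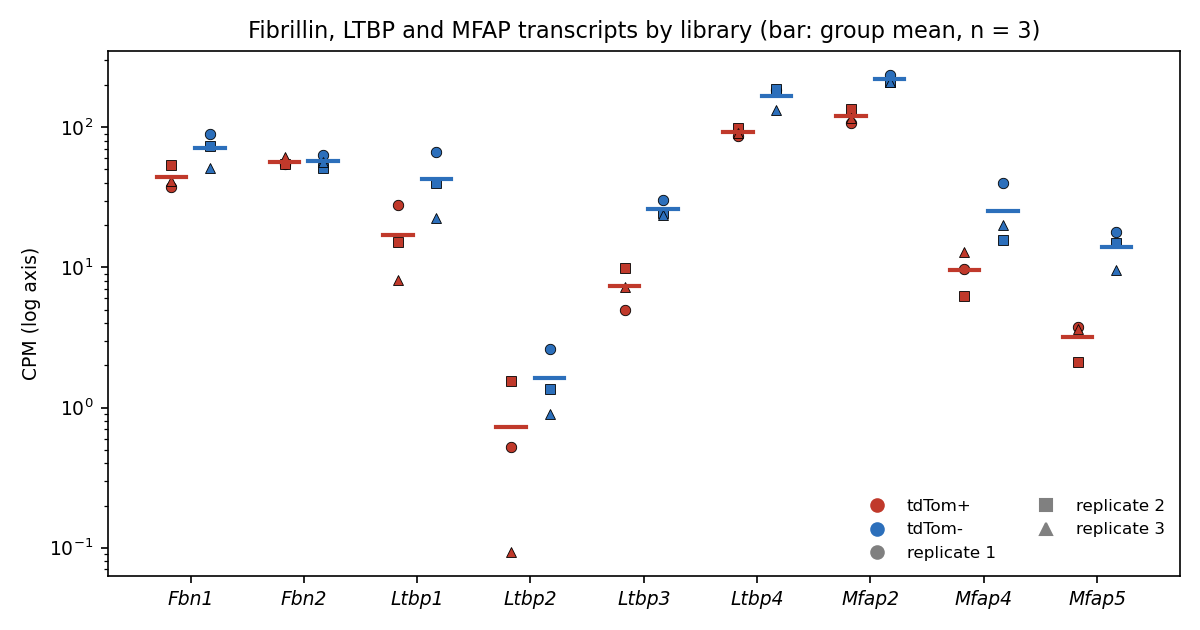
CPM of the 9 genes (log axis) in each tdTom+ library (red) and tdTom- library (blue), with symbols for the replicate number and bars for group means. Mfap2 and Ltbp4 are the most abundant by CPM, and the groups stand apart for Ltbp3, Ltbp4, Mfap2, Mfap4 and Mfap5 but not for Fbn1, Fbn2, Ltbp1 and Ltbp2.

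The fibrillins had different fold changes, and that difference was not tested. Fbn2, the fibrillin best known from embryonic tissue, was counted at 54.6, 54.3 and 61.3 CPM in tdTom+ replicates 1 to 3 and at 63.1, 51.6 and 56.3 CPM in tdTom- replicates 1 to 3. The groups overlapped fully, with means of 56.8 ± 3.97 and 57.0 ± 5.78 CPM (SD, n = 3) and a log2 fold change of -0.01 ± 0.13 (SE). Fbn1, the main fibrillin of adult microfibrils, was counted at 37.5, 53.9 and 41.4 CPM in tdTom+ and at 90.1, 73.3 and 51.4 CPM in tdTom- libraries. Its highest tdTom+ library lay above its lowest tdTom- library, so the groups overlapped, although the means were 44.3 ± 8.56 and 71.6 ± 19.4 CPM. The log2 fold change of Fbn1 was -0.69 ± 0.21, corresponding to a level 1.62-fold higher in tdTom- cells, and it was not called.

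The fibrillin genes lie on different chromosomes. In the GENCODE vM21 annotation of mm10, Fbn1 spans chr2:125300594-125507993 on the minus strand, with 12.1 kb of exon sequence. Fbn2 spans chr18:58008623-58210487 on the minus strand, with 13.2 kb of exon sequence. Per kilobase of exon, Fbn1 made up 42.8%, 52.0% and 42.4% of the fibrillin transcripts in tdTom+ replicates 1 to 3, and 60.9%, 60.8% and 49.9% in tdTom- replicates 1 to 3. The mean share of Fbn1 was 45.7 ± 5.42% in tdTom+ and 57.2 ± 6.34% in tdTom- libraries (SD, n = 3). The tdTom- replicate 3 library, with the lowest Fbn1 share of its group, fell among the tdTom+ libraries. An opposite-strand gene model, Gm9913, shares 2442 exon bases with Fbn1, or 20.1% of its exon sequence. The library kit does not mark strand, so reads from that overlap cannot be told apart.

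Among the LTBPs, Ltbp4 was the most abundant. LTBP4 binds latent TGF-β1 only weakly and is needed for elastic fibre assembly together with fibulin-5. Ltbp4 was counted at 86.2, 99.0 and 91.1 CPM in tdTom+ replicates 1 to 3. In tdTom- replicates 1 to 3 it was counted at 185, 188 and 132 CPM. The groups stood apart, and their means were 92.1 ± 6.47 and 168 ± 31.3 CPM (SD, n = 3), which gave a log2 fold change of -0.87 ± 0.14 (SE). Ltbp4 was called lower in tdTom+ cells, at a level 1.83-fold higher in tdTom- cells. The call ended without tdTom+ replicate 1, without tdTom- replicate 1 or without tdTom- replicate 2, with fold changes between -1.02 and -0.78 over the 6 libraries left out in turn.

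Ltbp3, whose product binds latent TGF-β and is best known from bone and teeth, showed a larger ratio at a lower level. It was counted at 5.0, 9.98 and 7.29 CPM in tdTom+ and at 30.2, 24.3 and 23.7 CPM in tdTom- libraries. Every tdTom- library lay above every tdTom+ library by a clear margin. The means were 7.42 ± 2.49 and 26.1 ± 3.56 CPM (SD, n = 3), 3.51-fold higher in tdTom- cells. Ltbp3 was called lower in tdTom+ cells, with a log2 fold change of -1.81 ± 0.28 (SE). That call was lost without any one of the 3 tdTom- libraries, while the fold change stayed between -2.09 and -1.59.

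Ltbp1, the LTBP first purified with latent TGF-β, varied widely among the libraries of a group, with coefficients of variation of 58.5% in tdTom+ and 51.5% in tdTom- cells. It was counted at 27.9, 15.3 and 8.13 CPM in tdTom+ and at 66.3, 39.7 and 22.5 CPM in tdTom- libraries. The highest library exceeded the lowest 3.43-fold within tdTom+ and 2.94-fold within tdTom-, and the groups overlapped. In both groups replicate 1 was highest and replicate 3 lowest. The means were 17.1 ± 10.004 and 42.8 ± 22.04 CPM (SD, n = 3). The fold change of Ltbp1 on the log2 scale, -1.32 ± 0.44 (SE), was not called. With replicate number in the fit, which no label ties to an embryo, Ltbp1 was called at -1.36 (last section). Ltbp2, which does not bind latent TGF-β, was close to absent. It summed to 24 counts over the tdTom+ and 51 counts over the tdTom- libraries, and tdTom+ replicate 3 held 1 count. Its log2 fold change of -1.15 ± 0.99 was not called, and a difference was not detectable at this depth.

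Shares within the LTBP family add to these levels. Per kilobase of exon, Ltbp4 made up 85.1 ± 4.71% of LTBP transcripts in tdTom+ and 79.0 ± 3.97% in tdTom- libraries (SD, n = 3). Ltbp1 made up 9.51 ± 5.62% and 11.6 ± 4.03%, and for both genes the libraries of the groups overlapped. The share of Ltbp3 was 3.33%, 6.10% and 5.13% in tdTom+ replicates 1 to 3 and 8.65%, 7.51% and 10.3% in tdTom- replicates 1 to 3. Ltbp3 was the LTBP whose share as well as level was lower in every tdTom+ library than in every tdTom- library.

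Of the microfibril-associated genes, Mfap2 was the most abundant of all 9 both by CPM and per length. It was counted at 107, 135 and 117 CPM in tdTom+ replicates 1 to 3 and at 237, 211 and 210 CPM in tdTom- replicates 1 to 3. The groups stood far apart compared with their spread, with means of 119 ± 14.2 and 219 ± 15.7 CPM (SD, n = 3). Mfap2 was called lower in tdTom+ cells, with a log2 fold change of -0.88 ± 0.10 (SE), or 1.84-fold higher in tdTom- cells. It was the 1 member whose call remained with each of the 6 libraries left out in turn, at fold changes between -0.97 and -0.80.

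Mfap5, the closest relative of Mfap2, was far less abundant. It was counted at 3.77, 2.11 and 3.65 CPM in tdTom+ and at 17.8, 14.9 and 9.63 CPM in tdTom- libraries, from 105 counts over the tdTom+ and 445 over the tdTom- libraries. Its groups did not overlap, with means of 3.17 ± 0.928 and 14.1 ± 4.12 CPM (SD, n = 3), and the fitted level was 4.43-fold higher in tdTom- cells. The log2 fold change of -2.15 ± 0.37 (SE) was the furthest from 0 of the 9 and was called. The call ended without tdTom+ replicate 1, without tdTom- replicate 1 or without tdTom- replicate 2, at fold changes between -2.36 and -1.92 over the 6 leave-outs.

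Mfap4 was counted at 9.74, 6.22 and 12.9 CPM in tdTom+ and at 39.96, 15.7 and 20.04 CPM in tdTom- libraries. The groups stood apart by a narrow gap, and tdTom- replicate 1 lay far above the other libraries. The means were 9.62 ± 3.34 and 25.2 ± 12.95 CPM (SD, n = 3). The fold change of Mfap4 on the log2 scale, -1.39 ± 0.38 (SE), was not called. With replicate number in the fit Mfap4 was called at -1.34 (last section). Without tdTom- replicate 1 the fold change of Mfap4 was -0.89. Mfap4 shares 89 exon bases, 4.63% of its exon sequence, with Mapk7 on the opposite strand, which had between 1013 and 1136 counts in tdTom+ and between 986 and 1146 in tdTom- libraries. The genes Mfap1a, Mfap1b, Mfap3 and Mfap3l carry the same name stem but belong to other families. In edgeR 0 of these 4 were called, with 0 at an unadjusted p under 0.05 and 0 called by DESeq2 or limma-voom, and their log2 fold changes lay between -0.10 ± 0.22 (Mfap1a) and 0.46 ± 0.36 (Mfap3l).

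**Figure D2:**
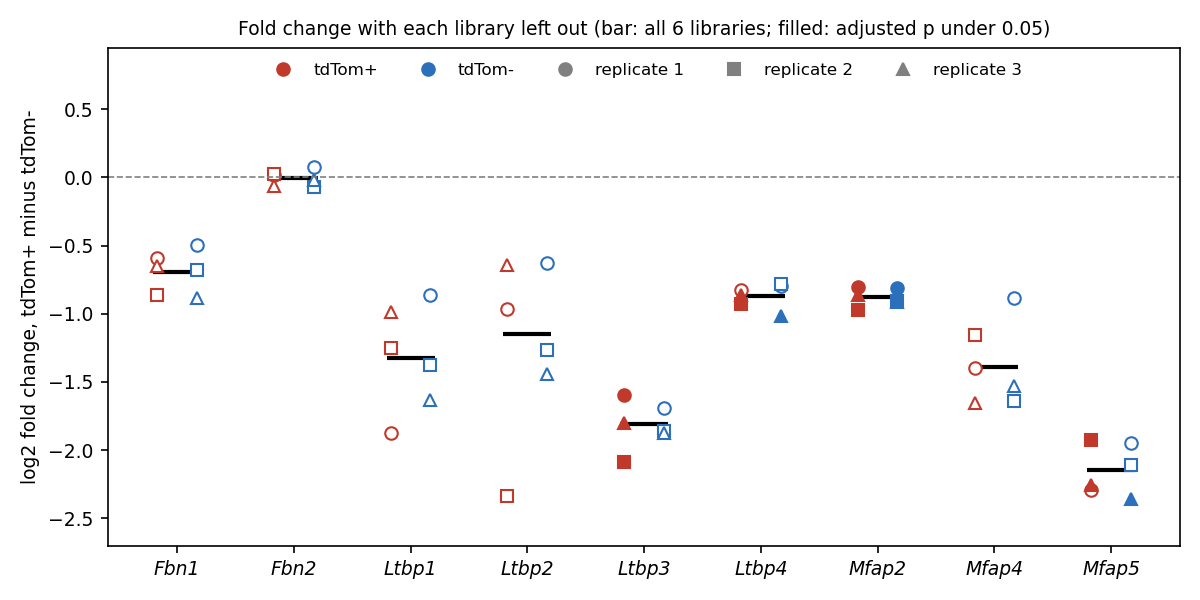
Log2 fold change (tdTom+ minus tdTom-) of each gene with all 6 libraries (black bar) and with each library left out in turn (red, a tdTom+ library; blue, a tdTom- library; symbol, its number), filled where the adjusted p was under 0.05. Mfap2 is filled throughout, Fbn2 stays on both sides of 0, and Ltbp1, Ltbp2 and Mfap4 move most.

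Compared per kilobase of exon, the order of levels was nearly the same in both groups. In tdTom+ libraries Mfap2 led at 98.7 ± 11.7 CPM per kb, followed by Ltbp4 at 14.3 ± 1.001 (SD, n = 3). Mfap4, Fbn2 and Fbn1 came next at 5.01 ± 1.74, 4.29 ± 0.300 and 3.65 ± 0.706 CPM per kb, and neighbours among these overlapped. Ltbp1, Mfap5 and Ltbp3, at 1.60 ± 0.936, 0.884 ± 0.259 and 0.819 ± 0.275 CPM per kb, also overlapped as neighbours, and Ltbp2 was lowest. In tdTom- libraries Mfap2 stood at 181 ± 12.9 CPM per kb, and Ltbp4 at 26.1 ± 4.85 overlapped with Mfap4 at 13.1 ± 6.74. The remaining order was Fbn1 (5.90 ± 1.60), Fbn2 (4.31 ± 0.437), Ltbp1 (4.01 ± 2.06), Mfap5 (3.93 ± 1.15) and Ltbp3 (2.87 ± 0.393), in which each gene overlapped with the next, and Ltbp2 was again lowest. The exon lengths used were 1.211 kb for Mfap2, 6.463 kb for Ltbp4 and 9.069 kb for Ltbp3. Amplified cDNA is not covered evenly along long transcripts, so levels of genes that differ this much in length are approximate.

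Ratios of counts within a library do not depend on how libraries are scaled. Fbn2 was taken as the denominator after its values were seen, as the member nearest to a log2 fold change of 0. The log2 ratio of Mfap2 to Fbn2 counts was 0.97, 1.31 and 0.93 in tdTom+ and 1.91, 2.03 and 1.90 in tdTom- libraries. For Ltbp4 it was 0.66, 0.87 and 0.57 against 1.55, 1.87 and 1.23, and for Ltbp3 -3.45, -2.44 and -3.07 against -1.06, -1.09 and -1.25. The groups did not overlap for these 3 genes. Since Fbn2 and these 3 called genes were picked by their values in this contrast, the ratios restate those values without the library scaling and add no separate evidence. For Fbn1 the ratios of -0.54, -0.01 and -0.57 in tdTom+ and 0.52, 0.51 and -0.13 in tdTom- libraries overlapped, through tdTom+ replicate 2 and tdTom- replicate 3.

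Promoter windows are shown, as a description, for the called genes that had an entry. The RefSeq promoter table for GRCm38.p6 held 6 of the 9 genes, and each window covers an annotated start and lies mostly upstream of it. For Ltbp4 and Mfap2, which have several starts, 1 window each is printed, and counts per gene do not tell the starts apart. Ltbp3 was read from chr19:5740650-5740949 on the plus strand, Ltbp4 from chr7:27337563-27337862 on the minus strand and Mfap2 from chr4:141010431-141010730 on the plus strand. Capitals mark matches, on either strand, to GGGCGG (the GC box bound by SP and KLF factors), TGANTCA (AP-1), CAGACA (the SMAD box) or TATAAA.
Ltbp3: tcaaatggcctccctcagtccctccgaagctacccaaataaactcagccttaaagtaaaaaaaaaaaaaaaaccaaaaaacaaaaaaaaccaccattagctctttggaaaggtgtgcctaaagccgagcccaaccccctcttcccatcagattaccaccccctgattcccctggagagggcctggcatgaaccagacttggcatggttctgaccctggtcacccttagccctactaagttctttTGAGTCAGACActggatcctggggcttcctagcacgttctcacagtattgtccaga
Ltbp4: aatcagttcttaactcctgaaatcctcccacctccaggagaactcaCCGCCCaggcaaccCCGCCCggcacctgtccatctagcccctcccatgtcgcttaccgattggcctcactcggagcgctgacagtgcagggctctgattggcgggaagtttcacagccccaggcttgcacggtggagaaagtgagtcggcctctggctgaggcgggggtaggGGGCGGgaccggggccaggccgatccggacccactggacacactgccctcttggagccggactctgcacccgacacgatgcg
Mfap2: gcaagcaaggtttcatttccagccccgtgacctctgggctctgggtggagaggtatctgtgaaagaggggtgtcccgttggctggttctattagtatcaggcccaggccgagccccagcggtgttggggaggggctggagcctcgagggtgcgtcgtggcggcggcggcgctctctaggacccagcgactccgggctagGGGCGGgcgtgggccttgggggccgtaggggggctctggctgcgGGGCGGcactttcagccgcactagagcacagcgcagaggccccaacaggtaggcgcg

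Across the printed windows the letters differed as follows. The Ltbp3 window had a GC content of 48.0%, no GC box, and 1 AP-1 match that overlaps with 1 SMAD box, in the run TGAGTCAGACA. The Ltbp4 window had a GC content of 64.3% and 3 GC boxes, and the Mfap2 window had 68.0% and 2 GC boxes. None of the 3 held TATAAA. The windows of the same genes that are not printed gave other values. The other Mfap2 window had a GC content of 52.0%, 0 GC boxes and 1 SMAD box, and the other Ltbp4 windows had 80.3% with 7 GC boxes and 81.3% with 9. Among 27025 promoters of the same length, 1 per gene and leaving out chromosome 18, the median GC content was 52.7%. In these promoters the GC box was found in 35.9%, AP-1 in 7.93%, the SMAD box in 21.0% and TATAAA in 14.2%. These matches describe the letters of the windows only.

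The genes that work with microfibrils were described from 8 pathway lists that do not include the 9 genes and that were drawn up with earlier results known. Calls and adjusted p-values of their genes are therefore given as a description, and they add no separate evidence to the values of the 9 genes. The lists held 91 genes of the count table, of which 81 were tested. In edgeR 3 were called higher and 5 lower in tdTom+ cells, against 0.769% and 0.814% of all tested genes. Their median log2 fold change was -0.13, against -0.00 over all tested genes. In the elastic fibre list edgeR called 3 of 15 tested genes lower and 0 higher, with 6 at an unadjusted p under 0.05 and a median of -0.36, while DESeq2 called 5 lower and 0 higher and limma-voom 3 lower and 0 higher. Eln encodes elastin itself, the core of the elastic fibre. It was counted at 64.8, 74.5 and 54.3 CPM in tdTom+ and at 330, 389 and 224 CPM in tdTom- libraries, a log2 fold change of -2.29 ± 0.19 (SE), at an adjusted p of 0.000292 in edgeR. The groups were widely separated, and the call remained with each library left out.

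Fibulins link elastin to microfibrils, and 2 of them were called lower in tdTom+ cells. Fbln5, whose product binds LTBP4, was at 76.3 ± 15.6 CPM in tdTom+ and 193 ± 71.8 CPM in tdTom- libraries (SD, n = 3), with a log2 fold change of -1.34 ± 0.24 and an edgeR adjusted p of 0.0246. Fbln2, which binds fibrillin, was at 43.2 ± 20.7 and 173 ± 46.2 CPM, with a log2 fold change of -2.0 ± 0.34 and an edgeR adjusted p of 0.0285. The Fbln5 call ended in 5 of 6 leave-outs, and the Fbln2 call without tdTom+ replicate 2 or tdTom- replicate 2. Without a filter on low counts neither was called in edgeR, at adjusted p of 0.138 for Fbln5 and 0.162 for Fbln2. Lox, which cross-links elastin, had a log2 fold change of -1.22 ± 0.32 and an edgeR adjusted p of 0.105. Fbln2 stood at 66.4, 36.5 and 26.5 CPM in tdTom+ and 216, 180 and 124 CPM in tdTom- replicates 1 to 3, so the groups did not overlap.

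Among 12 tested ADAMTS, ADAMTSL and other matrix partners edgeR called 1 lower and 0 higher, with 2 at an unadjusted p under 0.05 and a median log2 fold change of -0.29. DESeq2 and limma-voom also called 1 lower and 0 higher. Adamtsl2 encodes a microfibril-bound protein known to bind fibrillin-1 and LTBP1, and it was at 41.6 ± 3.47 CPM in tdTom+ and 68.6 ± 3.40 CPM in tdTom- libraries (SD, n = 3). Its log2 fold change was -0.72 ± 0.13 (SE), at an adjusted p of 0.0207 in edgeR, and the call ended in 5 of 6 leave-outs. The fibronectin gene Fn1, on whose fibrils microfibrils are laid down, had a log2 fold change of -0.26 ± 0.13 and an edgeR adjusted p of 0.54. Adamtsl1 had one of 0.98 ± 0.42 (edgeR adjusted p = 0.429), and Thsd4 one of -1.46 ± 0.74 (edgeR adjusted p = 0.54).

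**Figure D3:**
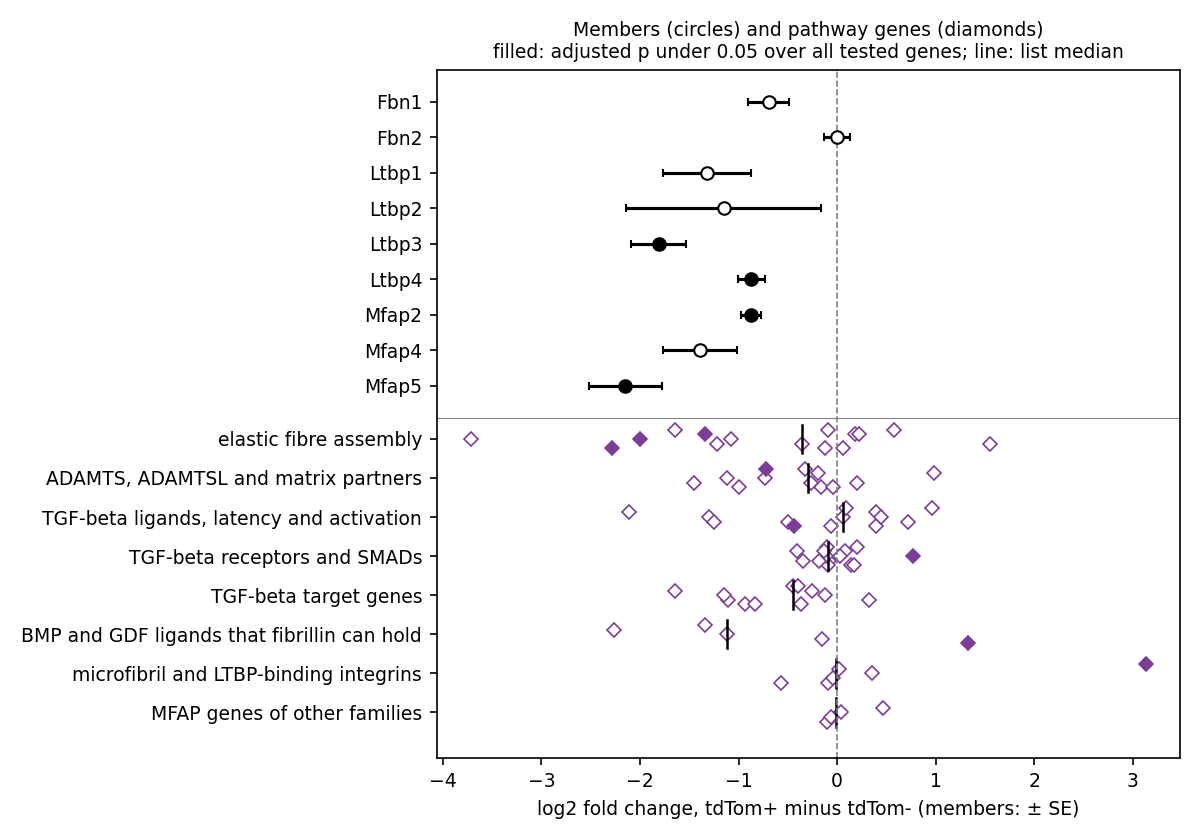
Log2 fold change (tdTom+ minus tdTom-) of the 9 genes (circles, ± SE) and of the tested genes of 8 pathway lists (diamonds), filled where the adjusted p was under 0.05, with a line at each list's median. The 9 genes lie at or left of 0, the elastic fibre list holds 3 filled genes at the left, and Bmp2, Itgb3 and Tgfbr3 are the filled genes at the right.

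LTBPs carry TGF-β, and of its 14 tested ligand and activation genes edgeR called 1 lower and 0 higher, with 9 at an unadjusted p under 0.05 and a median log2 fold change of 0.06. DESeq2 called 3 of them higher (Lrrc32, Thbs1 and Tll1) and 2 lower (Bmp1 and Pcsk5), and limma-voom called 1 lower (Bmp1) and 0 higher. Bmp1, a protease that cuts LTBP1 and other matrix proteins, was at 125 ± 9.85 CPM in tdTom+ and 169 ± 5.97 CPM in tdTom- libraries (SD, n = 3). Its log2 fold change was -0.44 ± 0.09 (SE), at an adjusted p of 0.0422 in edgeR, and the call ended in 5 of 6 leave-outs. Thbs1, an activator of latent TGF-β, had a log2 fold change of 0.96 ± 0.22 (edgeR adjusted p = 0.0598), and the related protease gene Tll1 had 0.72 ± 0.18 (edgeR adjusted p = 0.0879). Lrrc32 encodes GARP, which presents latent TGF-β at the cell surface in place of an LTBP. It was at 231, 226 and 289 CPM in tdTom+ and at 185, 194 and 189 CPM in tdTom- libraries, with a log2 fold change of 0.39 ± 0.10 and an edgeR adjusted p of 0.0999. The ligands themselves are given for their role and were picked after their values were seen. Tgfb1 had a log2 fold change of 0.39 ± 0.13, Tgfb2 of -0.50 ± 0.24 and Tgfb3 of -1.30 ± 0.40, and none was called.

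Among 14 tested receptors and SMADs edgeR called 1 higher and 0 lower, with 2 at an unadjusted p under 0.05 and a median log2 fold change of -0.09. DESeq2 called 1 higher (Tgfbr3) and 1 lower (Acvrl1), and limma-voom called none. Tgfbr3, the co-receptor betaglycan, was at 101 ± 20.2 CPM in tdTom+ and 59.4 ± 7.68 CPM in tdTom- libraries (SD, n = 3). Its log2 fold change was 0.77 ± 0.16 (SE), at an adjusted p of 0.0457 in edgeR, and the call ended in 5 of 6 leave-outs and in limma-voom (adjusted p = 0.0682). Acvrl1, the endothelial receptor ALK1, had a log2 fold change of -0.41 ± 0.12 (edgeR adjusted p = 0.143). Eng had 0.20 ± 0.11 (edgeR adjusted p = 0.584), and Smad3 had -0.35 ± 0.21 (edgeR adjusted p = 0.637). Of 11 genes known to respond to TGF-β, edgeR called 0, with 2 at an unadjusted p under 0.05, 1 called by DESeq2 (Ctgf) and 0 by limma-voom. The median log2 fold change of these targets was -0.45 and 10 lay below 0. Col1a1, Col1a2, Col3a1, Postn, Acta2 and Tagln are also in the mesenchyme and mural list below, so the medians of both lists share genes. Ctgf had 0.32 ± 0.09 (edgeR adjusted p = 0.118), Pmepa1 -0.45 ± 0.16 (edgeR adjusted p = 0.292), Tgfbi -0.25 ± 0.13 and Postn -1.64 ± 0.88.

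Fibrillin also holds BMP and GDF ligands, of which 5 were abundant enough to test. EdgeR, DESeq2 and limma-voom each called Bmp2 higher and 0 lower. In edgeR 2 reached an unadjusted p under 0.05, and the median log2 fold change was -1.12. Bmp2 was counted at 116, 98.3 and 83.3 CPM in tdTom+ and at 47.0, 37.7 and 33.7 CPM in tdTom- libraries, a log2 fold change of 1.33 ± 0.17 (SE), at an adjusted p of 0.00317 in edgeR. Its groups did not overlap, and the call remained with each library left out. Bmp4 had a log2 fold change of -0.15 ± 0.15, Bmp5 of -1.12 ± 1.02 and Bmp7 of -2.26 ± 0.97, with no call, and Bmp5 and Bmp7 were under 5 CPM in every library.

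Cells bind fibrillin and LTBPs through integrins, of which 1 of 6 tested genes rose and 0 fell in edgeR, as in DESeq2 and limma-voom, with 2 at an unadjusted p under 0.05 and a median log2 fold change of -0.01. Itgb3, the β3 subunit, was counted at 39.6, 66.6 and 28.7 CPM in tdTom+ and at 4.27, 4.99 and 6.16 CPM in tdTom- libraries. The log2 fold change was 3.13 ± 0.32 (SE), at an adjusted p of 0.00094 in edgeR, and the call remained with each library left out. Itgb3 is also a gene of megakaryocytes and platelets, and their 8 marker genes summed to between 210 and 402 CPM in tdTom+ and between 23.3 and 37.8 CPM in tdTom- libraries. EdgeR called 4 of these 8 markers higher (Itga2b, Tubb1, Pf4 and Gp5) and 0 lower, against 0.769% of all tested genes called higher. DESeq2 called 7 of them higher and limma-voom 2, in both cases with Itga2b and with 0 lower. The part of megakaryocyte or platelet RNA in the Itgb3 difference was not tested. Among the other integrin genes of the list, Itgav had a log2 fold change of -0.09 ± 0.16, Itga8 of 0.36 ± 0.21 and Itgb5 of -0.57 ± 0.25, and none was called.

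Microfibril genes are also abundant in mesenchyme and in the mural cells around vessels. A list of 19 markers of these cells summed to 351, 220 and 760 CPM in tdTom+ replicates 1 to 3 and to 1316, 582 and 752 CPM in tdTom- replicates 1 to 3. The groups overlapped, through tdTom+ replicate 3. In edgeR 0 of the 17 tested markers were called, with 2 at an unadjusted p under 0.05, 1 called by DESeq2 (Lum) and 0 by limma-voom. Their median log2 fold change was -0.83 and 14 lay below 0. No marker of the list was at 0 in all 3 libraries of a group. Myh11, which defines mature smooth muscle, reached at most 0.187 CPM in tdTom+ and 0.672 CPM in tdTom- libraries. Pdgfra was at 6.49, 5.40 and 25.6 CPM in tdTom+ and at 58.8, 17.2 and 19.4 CPM in tdTom- libraries. In bulk libraries, fewer cells of a type and less RNA per cell cannot be told apart.

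The library values allow the microfibril genes to be set beside these markers. The tdTom+ replicate 3 library had a higher marker sum than the tdTom- replicate 2 library, at 760 against 582 CPM. Mfap2 was at 117 CPM in the first and 211 CPM in the second, Ltbp4 at 91.1 and 188 CPM, and Ltbp3 at 7.29 and 24.3 CPM. Mfap5 was at 3.65 and 14.9 CPM, Ltbp1 at 8.13 and 39.7 CPM, and Mfap4 at 12.9 and 15.7 CPM in these libraries. Fbn1 was at 41.4 and 73.3 CPM. These 7 genes were lower in the first library, and Fbn2 was higher there, at 61.3 against 51.6 CPM. This pair of libraries was picked after the values were seen, because their marker sums run against the group means. The 9 genes were themselves chosen from this contrast, so nothing is read from the pair. Within tdTom- cells, replicate 1 had the highest marker sum and also the highest value of 8 of the 9 genes, the exception being Ltbp4. Within tdTom+ cells this was not so. Replicate 3 had the highest marker sum there, but among the 9 genes only Fbn2 and Mfap4 were highest in it. Fbn1, Ltbp2, Ltbp3, Ltbp4 and Mfap2 were highest in tdTom+ replicate 2, which had the lowest marker sum, and Ltbp1 and Mfap5 in tdTom+ replicate 1. The part of mesenchymal or mural RNA in the differences between the groups was not tested.

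**Figure D4:**
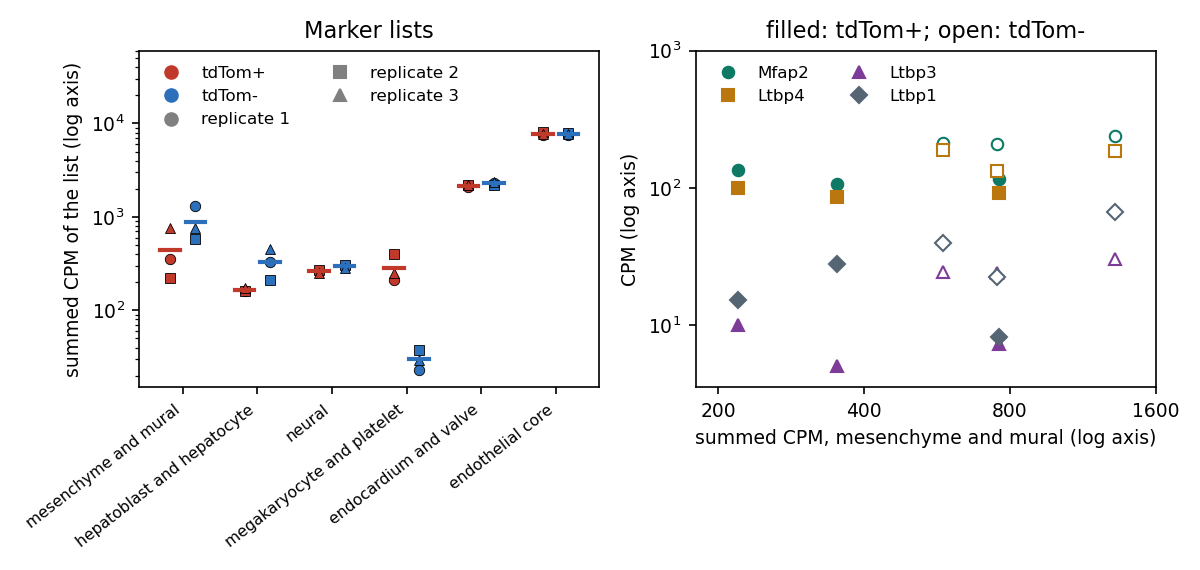
Left, summed CPM (log axis) of 6 marker lists in tdTom+ (red) and tdTom- (blue) libraries with group means as bars; right, CPM of Mfap2, Ltbp4, Ltbp3 and Ltbp1 against the mesenchyme and mural sum of the same library (both log axes; filled, tdTom+; open, tdTom-). The mesenchyme and mural sums of the groups overlap, through tdTom+ replicate 3 at 760 CPM.

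Other tissues of the embryo were checked in the same way. The 11 hepatoblast markers summed to between 161 and 175 CPM in tdTom+ and between 210 and 457 CPM in tdTom- libraries, and the 8 neural markers to between 249 and 269 against between 287 and 306 CPM. The 7 endocardium and valve genes summed to between 2066 and 2191 CPM in tdTom+ and between 2196 and 2357 CPM in tdTom- libraries, and 2 of them, Cdh11 and Gata5, were called lower. Gata5, a transcription factor of the endocardium, was at 1.80 ± 0.87 CPM in tdTom+ and 11.0 ± 3.69 CPM in tdTom- libraries (SD, n = 3). For Gata5 the log2 fold change was -2.60 ± 0.47 (SE), at an adjusted p of 0.0223 in edgeR, and its call ended in 5 of 6 leave-outs and in limma-voom, which called only Cdh11 of this list. DESeq2 called 3 of the list lower (Cdh11, Gata5 and Tbx20) and 1 higher (Gata4). Cdh11, a cadherin of valve and mesenchyme, was at 24.3 ± 7.84 and 77.4 ± 26.3 CPM, with a log2 fold change of -1.67 ± 0.28 and an edgeR adjusted p of 0.0163. The Cdh11 call ended in 3 of 6 leave-outs. At these levels Gata5 and Cdh11 were a small part of the list's summed CPM, which came mostly from its other genes and says little about these called genes. The blood cell and epithelial lists ran the other way or overlapped. The 12 macrophage and myeloid markers summed to between 90.6 and 147 CPM in tdTom+ and between 41.7 and 56.9 CPM in tdTom- libraries, and edgeR called Mrc1 higher. The 9 erythroid markers summed to between 201 and 274 against between 144 and 251 CPM, with Klf1 called higher in edgeR, and the 5 epithelial markers to between 1.87 and 68.1 against between 28.7 and 45.2 CPM. The part of blood cell RNA in the microfibril differences was not tested, nor was that of the origin of the endothelial cells within the embryo.

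For the most abundant gene of each family, the genes with the most similar profile were found by Pearson correlation of log2 CPM over the 6 libraries, among 10078 tested genes of sufficient level. These correlations rest on 6 points, carry the group difference within them and share library depth, and they are given as a description. Closest to Mfap2 were Ltbp3 (r = 0.996), Cdh2 (r = 0.996) and Cd24a (r = 0.995). Ltbp3 is another of the 9, and both genes were chosen from this contrast, so nothing is read from their closeness. Closest to Ltbp4 were Ttf2 (r = 0.9998), Dennd3 (r = 0.990) and Nfe2l1 (r = 0.989). Closest to Fbn1 were Robo1 (r = 0.985), Mbd5 (r = 0.970) and Homer1 (r = 0.968).

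The authors' deposited table holds their own comparison, given as tdTom- over tdTom+. In the authors' deposited table, 6 of the 9 genes had an adjusted p under 0.05 (Fbn1, Ltbp3, Ltbp4, Mfap2, Mfap4 and Mfap5), against 3.32% of all genes with an adjusted p there. The log2 fold changes for tdTom- over tdTom+ in the authors' deposited table ran from 0.006 for Fbn2 to 2.153 for Mfap5. Fbn1 and Mfap4 were the genes called there but not in edgeR's quasi-likelihood test.

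The remaining positions, in the GENCODE vM21 annotation of mm10, are as follows. Ltbp1 spans chr17:75005568-75392512 on the plus strand, Ltbp2 spans chr12:84783212-84876532 on the minus strand, and Ltbp3 spans chr19:5740904-5758532 on the plus strand. Ltbp4 spans chr7:27305136-27337692 on the minus strand, and Mfap2 spans chr4:141010418-141015984 on the plus strand. Mfap4 spans chr11:61485431-61488900 and Mfap5 spans chr6:122505845-122529290, both on the plus strand. Counts are per gene symbol, so isoforms were not told apart.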

How the data were processed

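Endothelial cells were sorted from whole embryos, and cDNA was amplified with the SMART-seq V4 kit and made into libraries with Nextera XT, per the labels' protocols. The mm10 build, DESeq2, featureCounts 1.4.6, Picard 2.7.1.1, STAR 2.5.2b and Trimmomatic 0.36.4 are listed in the submitters' processing notes, where their roles are not given. The authors deposited whole-number read counts per gene, without normalization. Their deposited table also gives a fold ratio, a log2 fold change and a p-value for tdTom- over tdTom+, and normalized or diagnostic score columns that the authors deposited and that were not used here. The kit does not mark strand, and reads carry no molecular identifiers, so a floor of 3 counts covers counting error only.

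Groups came from the sample titles. No pair of libraries of a group agreed within sampling noise, so each counted as 1 replicate. The chi-square averaged over genes was 15.1 to 19.3 between tdTom+ libraries and 8.02 to 10.5 between tdTom- libraries. Nothing beyond the protocol says that replicates came from separate animals, so p-values measure the spread between these libraries. The 9 genes and all lists were chosen with earlier results of these data known. The count test was that of edgeR 4.0.16 (R 4.3.3), namely its robust quasi-likelihood F-test, two-sided, after TMM scaling and filterByExpr at 10 counts. Adjustment by Benjamini-Hochberg covered 13142 genes, and an adjusted p under 0.05 was a call. Dividing a fold change's size by the root of its F gave the SE, and the test was checked on simulated counts. Named pathway genes are those called, and otherwise up to 4 per list with the smallest p. Gene symbols of the lists were matched directly or, for Nrros, Adgre1 and Spi1, through RefSeq synonyms. Alternatives were other scalings and filters, DESeq2 1.42.0, limma-voom (limma 3.58.1), a replicate block and leaving out each library.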

Additional observations from a re-analysis of the deposited data

How the results depend on the processing

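Of all tested genes 208 were called, 4 of the 9 microfibril genes and 8 of the pathway genes. DESeq2 called 502 genes (211 higher, 291 lower), 6 of the 9 (Fbn1 and Mfap4 added, at log2 fold changes of -0.70 and -1.39) and 16 pathway genes. With each library left out the counts ran from 62 to 189 genes, from 1 to 4 of the 9 genes and from 3 to 7 pathway genes. Of the 9, 1 was called without tdTom- replicate 1 or 2, 2 without tdTom+ replicate 1 and 3 without tdTom- replicate 3. All genes called were 126 without tdTom+ replicate 1, 83, 71 and 62 without tdTom- replicates 1, 2 and 3. Pathway calls were 4 without tdTom+ replicate 1, 5 without tdTom+ replicate 2, and 5, 3 and 5 without tdTom- replicates 1, 2 and 3. Leaving out a library also leaves fewer samples to test. The same 4 of the 9 were called with RLE or total-count scaling, with no filter, with a minimum count of 30 (which left Ltbp2 untested) and in limma-voom. No scaling moved the median of all genes by over 0.1. The log2 fold change of Fbn2 was 0.000623 in limma-voom and ran from -0.074 to 0.076 over the leave-outs, that of Mfap3 from -0.089 to 0.17 and that of Mfap1b from -0.24 to 0.043; each of these changed sign, and the cause was not tested. Over all settings, values of the 9 genes kept direction and side of the threshold in 99 cases, lost the call in 9, gained it in 4 and changed sign in 4.

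Titles share the numbers 1 to 3, and the protocol divides the cells of 3 embryos, but no label says that a number names an embryo. Deviations of same-numbered libraries from their group means correlated at 0.105, 0.0892 and 0.161 across genes, and every library correlated best with its own number. In both groups Xist was high in the library numbered 3 (1224 and 571 counts) and at most 8 in the others. These values are a hint from the data, and the numbers were not taken as pairing. With the replicate block 295 genes were called, 6 of the 9 (Ltbp1 and Mfap4 added, at log2 fold changes of -1.36 and -1.34) and 11 pathway genes. The tdTom- over tdTom+ ratio of Ltbp1 between same-numbered libraries was 2.38, 2.60 and 2.77.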
